A study of Mus musculus with 18 samples.

Results

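The 9 genes described here encode globin chains or enzymes of heme synthesis: the adult beta-globin genes Hbb-bs and Hbb-bt, the adult alpha-globin genes Hba-a1 and Hba-a2, the erythroid heme enzyme gene Alas2, and the heme enzyme genes Alas1, Urod, Cpox and Fech, which cells of every type use. They were chosen by name and found through a table that pairs Ensembl IDs with symbols. All 9 were present in each of the 3 deposited tables, among 12679 genes in the 10 h comparison of p53WT AML, 12861 in that of p53null AML and 12838 in the 72 h comparison of p53WT AML. No member was missing from a table, and each had passed whatever filter on low counts the authors had applied.

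The study profiled mouse acute myeloid leukemia (AML) by RNA sequencing after CX-5461, a compound that inhibits RNA polymerase I. Leukemias driven by MLL/ENL and Nras, either p53WT or p53null, were grown in syngeneic C57BL/6 recipients. The 18 samples formed 6 groups of 3: p53WT AML after CX-5461 or vehicle for 10 h, p53null AML after CX-5461 or vehicle for 10 h, and p53WT AML after CX-5461 or vehicle for 72 h. All groups share the MLL/ENL and Nras oncogenes and the sort for GFP-positive cells from the bone marrow. The labels do not say which blood cells of their own the recipients kept. They give neither the age of the animals nor how the p53 loss was made, and they do not say whether a genotype was 1 leukemia or several or whether the samples came from separate animals. The p-values below therefore measure the spread between these samples, which may be technical.

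Hemoglobin is built from alpha and beta globin chains, each holding a heme group. Heme synthesis starts in mitochondria with 5-aminolevulinate synthase, encoded by Alas2 in the red cell lineage and by Alas1 in other cells. Urod (uroporphyrinogen decarboxylase) and Cpox (coproporphyrinogen oxidase) act later in the pathway, and Fech (ferrochelatase) inserts the iron. Developing red cells raise Alas2 and the later enzymes together with globin transcription under GATA1, TAL1 and KLF1, while leukocytes need heme for cytochromes, peroxidases and oxidases and do not make hemoglobin.

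Promoter sequences from RefSeq (GRCm38.p6) matched 8 of the 9 genes, Fech being the other. The 250 bases before the start of 7 of them are shown. The window of Hba-a2 is left out, since it repeats that of Hba-a1. The globins, Alas2, Urod and Cpox varied together across libraries, and Alas1 did not rise with them. Whether the promoter letters bear on these levels was not tested. Capitals mark AGATAA or TGATAA on either strand, the letters bound by GATA factors.
Hbb-bs (GRCm38.p6, chr7:103827929-103828178, minus strand): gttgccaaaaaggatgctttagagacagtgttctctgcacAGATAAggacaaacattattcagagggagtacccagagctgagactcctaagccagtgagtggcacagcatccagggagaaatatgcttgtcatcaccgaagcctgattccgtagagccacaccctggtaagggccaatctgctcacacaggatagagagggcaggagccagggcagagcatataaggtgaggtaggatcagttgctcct
Hbb-bt (GRCm38.p6, chr7:103813924-103814173, minus strand): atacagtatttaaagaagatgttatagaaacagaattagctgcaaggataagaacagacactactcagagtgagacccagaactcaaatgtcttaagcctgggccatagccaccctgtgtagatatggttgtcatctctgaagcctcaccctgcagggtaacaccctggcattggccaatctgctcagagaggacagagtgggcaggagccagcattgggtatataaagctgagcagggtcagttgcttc
Hba-a1 (GRCm38.p6, chr11:32283422-32283671, plus strand): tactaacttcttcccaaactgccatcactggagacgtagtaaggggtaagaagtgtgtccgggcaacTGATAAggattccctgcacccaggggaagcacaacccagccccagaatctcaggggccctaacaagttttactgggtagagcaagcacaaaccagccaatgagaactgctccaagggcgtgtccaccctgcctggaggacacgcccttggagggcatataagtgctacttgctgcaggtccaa
Alas2 (GRCm38.p6, chrX:150547167-150547416, plus strand): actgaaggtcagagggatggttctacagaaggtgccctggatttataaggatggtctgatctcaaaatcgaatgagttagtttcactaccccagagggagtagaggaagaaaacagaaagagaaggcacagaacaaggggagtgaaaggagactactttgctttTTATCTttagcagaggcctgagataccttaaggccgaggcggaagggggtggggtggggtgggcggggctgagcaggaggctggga
Urod (GRCm38.p6, chr4:116994414-116994663, minus strand): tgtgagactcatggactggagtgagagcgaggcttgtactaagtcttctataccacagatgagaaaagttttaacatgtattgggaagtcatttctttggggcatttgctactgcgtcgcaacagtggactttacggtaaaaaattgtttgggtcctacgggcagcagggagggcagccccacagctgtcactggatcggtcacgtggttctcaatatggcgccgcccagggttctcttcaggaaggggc
Cpox (GRCm38.p6, chr16:58669958-58670207, plus strand): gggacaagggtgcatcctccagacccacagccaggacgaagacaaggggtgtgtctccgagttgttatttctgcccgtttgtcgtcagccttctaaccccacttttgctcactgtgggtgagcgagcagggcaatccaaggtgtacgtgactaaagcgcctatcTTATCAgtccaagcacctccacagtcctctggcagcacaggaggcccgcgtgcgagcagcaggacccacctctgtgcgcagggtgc
Alas1 (GRCm38.p6, chr9:106247955-106248204, minus strand): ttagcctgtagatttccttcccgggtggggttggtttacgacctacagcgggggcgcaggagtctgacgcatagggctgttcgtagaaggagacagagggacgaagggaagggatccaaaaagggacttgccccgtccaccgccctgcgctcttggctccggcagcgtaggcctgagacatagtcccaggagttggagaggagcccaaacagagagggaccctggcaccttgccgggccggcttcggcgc
These GATA letters occurred in the windows of Hbb-bs, Hba-a1, Hba-a2, Alas2 and Cpox and not in those of Hbb-bt, Alas1 and Urod, against 16.6% of all 32851 promoter windows of this length. The KLF letters CCNCNCCC, searched on both strands, occurred once in Hbb-bs, once in Hbb-bt, once in Alas1 and at 4 places in Alas2, 3 of them overlapping, against 45.9% of windows. TATAAA was found 28 bases before the start of Hbb-bt and, on the other strand, 209 bases before that of Alas2, against 12.4% of windows. The E box letters CANNTG occurred in the windows of all 4 globin genes and of Urod, against 66.2% of windows. The Hba-a1 and Hba-a2 windows were identical over the 247 bases that align when they are shifted by 3 bases.

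The 2 genes of a globin pair have almost the same coding sequence. In GENCODE M21 the open reading frames of Hbb-bs and Hbb-bt were identical at 443 of 444 bases, and those of Hba-a1 and Hba-a2 at 428 of 429. The stretches around the base that differs are shown, with that base in capitals. Counted from the A of the start codon, the difference was C417T between Hbb-bs and Hbb-bt and C381T between Hba-a1 and Hba-a2, the base of the gene named ahead coming before the position.
Hbb-bs (open reading frame, bases 384 to 444): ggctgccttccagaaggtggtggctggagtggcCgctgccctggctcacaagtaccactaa
Hbb-bt (open reading frame, bases 384 to 444): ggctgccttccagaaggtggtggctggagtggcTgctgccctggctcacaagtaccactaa
Hba-a1 (open reading frame, bases 351 to 411): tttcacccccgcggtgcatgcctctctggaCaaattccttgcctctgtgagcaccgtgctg
Hba-a2 (open reading frame, bases 351 to 411): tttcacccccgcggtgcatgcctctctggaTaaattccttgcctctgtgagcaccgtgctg
The longest identical run was 416 bases in the beta pair and 380 bases in the alpha pair. The sources used here do not say how the authors' counting divided reads between such copies, so counts of a single globin gene are uncertain and sums of a pair are safer.

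Raw counts could be read for 1 comparison, p53WT AML after 10 h, with 21578685 to 37244725 counts in the CX-5461 libraries and 22090394 to 48118513 in the vehicle libraries. Columns carried an arm and a number from 1 to 3 that is not tied to a sample title, so libraries are called CX and vehicle libraries 1, 2 and 3. Genes of the leukemia and of myeloid progenitors were abundant in every library: the granule peroxidase gene Mpo had 7648, 7762 and 7918 CPM (counts scaled to the library total) in CX libraries, against 7653, 5414 and 6239 CPM in vehicle libraries, and Hoxa9, a driver of MLL leukemia, had 131 to 143 CPM in CX and 132 to 136 CPM in vehicle libraries. Although the cells had been sorted for GFP, red cell genes were detected too, and the vehicle libraries stood apart from one another in them. The membrane transporter gene Slc4a1 (band 3) had 3.61, 2.52 and 5.83 CPM in CX libraries 1, 2 and 3, against 227, 755 and 27.2 CPM in vehicle libraries 1, 2 and 3. In bulk RNA, fewer cells of a type and less RNA per cell cannot be told apart.

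At 10 h in p53WT AML the globin RNAs were lower in every CX-5461 library than in every vehicle library, but the size of the gap was set by vehicle libraries 1 and 2. CPM values here were scaled by TMM, a factor for library composition. Hbb-bs (ENSMUSG00000052305) had 71.4, 135 and 104 CPM in CX libraries 1, 2 and 3, against 1606, 5935 and 169 CPM in vehicle libraries 1, 2 and 3. Hba-a1 (ENSMUSG00000069919) had 63.4, 116 and 89.5 CPM in the same CX libraries, against 1363, 4469 and 153 CPM in the vehicle libraries. Vehicle library 3 lay just above the CX libraries, whereas vehicle library 2 was 35.2 times vehicle library 3 for Hbb-bs and 29.3 times for Hba-a1. Hbb-bt (ENSMUSG00000073940) followed, with 40.5, 78.5 and 57 CPM in CX libraries against 1041, 3514 and 107 CPM in vehicle libraries. Hba-a2 (ENSMUSG00000069917) had 59.3, 111 and 85.7 CPM in CX libraries against 1231, 4001 and 145 CPM in vehicle libraries. Summed, the 4 globins held 235, 440 and 336 CPM in CX libraries and 5240, 17919 and 573 CPM in vehicle libraries. Relative to the CX mean, vehicle library 3 was 1.63 to 1.82 times as high for the 4 globins, vehicle library 1 was 14.4 to 17.7 times and vehicle library 2 was 47.0 to 59.9 times as high.

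Fold changes were fitted with edgeR's quasi-likelihood test on all 12679 genes, with CX-5461 over vehicle and Benjamini-Hochberg adjustment. The log2 fold change was -4.64 for Hbb-bs (SE 1.15, 95% interval -7.35 to -1.93), -4.73 for Hbb-bt (SE 1.13), -4.48 for Hba-a1 (SE 1.09) and -4.40 for Hba-a2 (SE 1.07). The edgeR quasi-likelihood adjusted p was 0.0521, 0.0503, 0.0513 and 0.0513 in that order, so that 0 of the 4 globins passed 0.05, while all 4 had an unadjusted p under 0.05. So did Alas2, Urod and Cpox, making 7 of the 9 genes lower at that level, where 16.7% of all genes were. Since both members of a pair share nearly all their coding sequence, the pairs were also summed before the fit: the beta sum was 112, 213 and 161 CPM in CX libraries against 2646, 9449 and 276 CPM in vehicle libraries, with a log2 fold change of -4.67 and an edgeR adjusted p of 0.0516. The alpha sum had a log2 fold change of -4.44 and an edgeR adjusted p of 0.0513. Without vehicle libraries 1 and 2, a setting chosen after the data were seen, the log2 fold changes were -0.73 for Hbb-bs, -0.89 for Hbb-bt, -0.79 for Hba-a1 and -0.78 for Hba-a2, and without vehicle library 3 they were -5.19, -5.28, -5.03 and -4.94 with all 4 called. Of the 9 genes, 8 were called lower without vehicle library 3, where 6.63% of all genes were, and 1 without vehicle libraries 1 and 2, where 7.48% were.

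**Figure D1:**
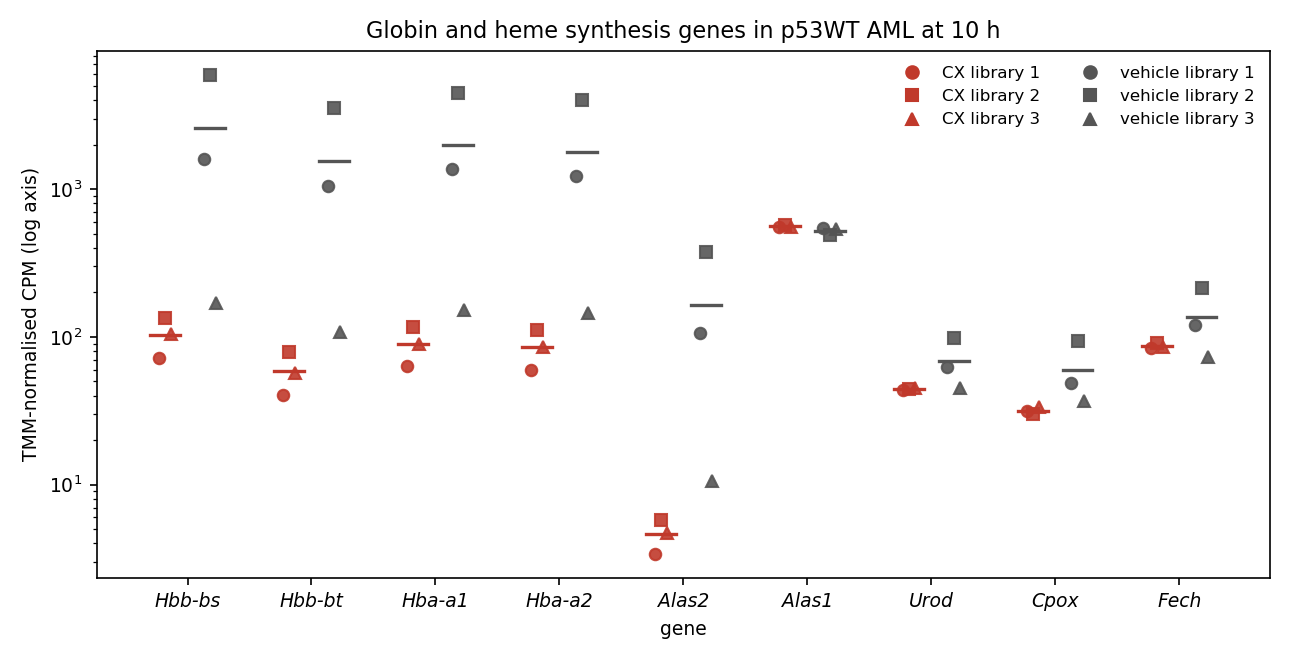
TMM-normalised CPM of the 9 genes in the 6 libraries of p53WT AML at 10 h, on a log axis, with CX libraries (red) left of vehicle libraries (grey), one symbol per library number and bars at group means (n = 3 each). For the globins and Alas2, vehicle library 3 lies just above the CX libraries and vehicle libraries 1 and 2 far above, while Alas1 stays between 485 and 569 CPM in all 6.

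Alas2 (ENSMUSG00000025270) fell, and it alone of the 9 genes passed the test. It had 3.40, 5.78 and 4.73 CPM in CX libraries 1, 2 and 3, against 106, 377 and 10.6 CPM in vehicle libraries 1, 2 and 3. The vehicle libraries again spanned a wide range, and the groups did not overlap. The log2 fold change was -5.18 (SE 1.21, 95% interval -8.03 to -2.33), with an edgeR quasi-likelihood adjusted p of 0.0472. Without vehicle libraries 1 and 2, a setting chosen after the data were seen that leaves 1 vehicle library, it was -1.24. The edgeR quasi-likelihood call was lost without vehicle library 1 (adjusted p 0.0510) and without CX library 1, 2 or 3 (0.190, 0.169 and 0.147). In all, 1 of the 9 genes was called lower and 0 higher, where 4.32% of all genes tested were called lower and 3.78% higher. Without a CX library, 0 or 1 of all 12679 genes were called lower. Every CX library lay below every vehicle library for 6 of the 9, namely the 4 globins, Alas2 and Cpox, where 19.1% of all genes did so, and above for 1, Alas1, where 19.9% did so. The count of called members varied with the tool. DESeq2 called 6 of 9 lower, against 10.8% of all genes, the edgeR exact test 6 against 8.05%, limma-voom 0 against 2.6% and robust quasi-likelihood estimation 0 against 3.83%. At unadjusted p under 0.05, limma-voom had 5 and the robust fit 6 of the 9 genes, with no share over all genes at hand for either. With genes at a mean of at least 5 CPM alone the quasi-likelihood fit called 5 against 6.32%, and with library sizes that leave out globin and red cell genes 2 against 4.87%.

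The 4 housekeeping heme enzymes did not pass in the quasi-likelihood fit, whose adjusted p is given for each. Of the other tools, DESeq2 called Urod lower (adjusted p 0.0332) and the edgeR exact test called Cpox lower (adjusted p 0.0371). Alas1 (ENSMUSG00000032786), the synthase of other cells, had 552, 569 and 553 CPM in CX libraries against 549, 485 and 538 CPM in vehicle libraries. Its log2 fold change was 0.09 (SE 0.0621, 95% interval -0.05 to 0.24), with an edgeR adjusted p of 0.350. Vehicle library 2, the highest in globin, was the lowest in Alas1. Cpox (ENSMUSG00000022742) had 31.6, 30.1 and 33.4 CPM in CX libraries against 48.7, 93.6 and 36.9 CPM in vehicle libraries, a log2 fold change of -0.91 (SE 0.315) with an edgeR adjusted p of 0.103. Urod (ENSMUSG00000028684) had 43.7, 44.5 and 45.1 CPM in CX libraries against 62.3, 98.2 and 45.0 CPM in vehicle libraries, so that vehicle library 3 lay among the CX libraries. Its log2 fold change was -0.63 (SE 0.252) with an edgeR adjusted p of 0.144. Fech (ENSMUSG00000024588) had 84.2, 90.8 and 85.9 CPM in CX libraries against 121, 214 and 72.9 CPM in vehicle libraries, a log2 fold change of -0.65 (SE 0.341) with an edgeR adjusted p of 0.241. For Fech, vehicle library 3 was the lowest of all 6, and without vehicle libraries 1 and 2 its log2 fold change was 0.25.

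The 4 other enzymes of the pathway were highest in vehicle library 2, as Cpox and Urod were and Alas1 was not. All 4 had a negative log2 fold change, the median being -0.72 against 0.00 over all genes, and 0 of 4 passed in the edgeR quasi-likelihood fit, with 3 at an unadjusted p under 0.05 and 2 lower in the authors' deposited table. Uros, the uroporphyrinogen synthase gene, had 14.9, 14.0 and 12.9 CPM in CX libraries against 20.1, 31.9 and 16.2 CPM in vehicle libraries (edgeR adjusted p 0.0964). Ppox, the protoporphyrinogen oxidase gene, had 49.4, 44.8 and 43.8 CPM in CX libraries against 58.0, 83.0 and 52.2 CPM in vehicle libraries (edgeR adjusted p 0.103). Of 11 genes that deliver glycine, iron or intermediates to heme synthesis, 0 passed (1 at an unadjusted p under 0.05, 0 in the authors' deposited table), at a median of -0.12. The mitochondrial glycine carrier gene Slc25a38 had 21.6, 21.4 and 21.5 CPM in CX libraries against 27.3, 38.5 and 24.4 CPM in vehicle libraries. Its log2 fold change missed the threshold (edgeR adjusted p 0.0989).

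Ratios within a library set the globins against each enzyme. Alas2 over Alas1 was 0.00616, 0.0102 and 0.00854 in CX libraries 1, 2 and 3, against 0.194, 0.778 and 0.0197 in vehicle libraries 1, 2 and 3. On the log2 scale the mean ratio was -6.94 ± 0.366 in CX and -2.80 ± 2.68 in vehicle libraries (SD, n = 3 each), a difference of -4.15 with p = 0.1 in a two-sided exact permutation test, the smallest p that 3 against 3 libraries allow. The summed globins over Alas2 were 69.0, 76.0 and 71.1 in CX libraries against 49.3, 47.5 and 54.0 in vehicle libraries, so that the ratio was higher in each CX library although both terms were lower there. The globins also exceeded the red cell membrane gene Slc4a1 by more in CX libraries, at 64.9, 174 and 57.6, against 23.1, 23.7 and 21.1 in vehicle libraries. Vehicle library 3, with far less globin than the other vehicle libraries, had their globin to Slc4a1 ratio and not that of the CX libraries. Within the pairs the proportions were steadier. Hbb-bs over Hbb-bt was at 1.72 to 1.82 in CX and 1.54 to 1.69 in vehicle libraries, and Hba-a1 over Hba-a2 at 1.04 to 1.07 in CX and 1.05 to 1.12 in vehicle libraries. Between the pairs, alpha over beta was at 1.06 to 1.10 in CX and 0.896 to 1.08 in vehicle libraries. These ratios are of CPM, with no correction for length, and are compared between libraries only.

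**Figure D2:**
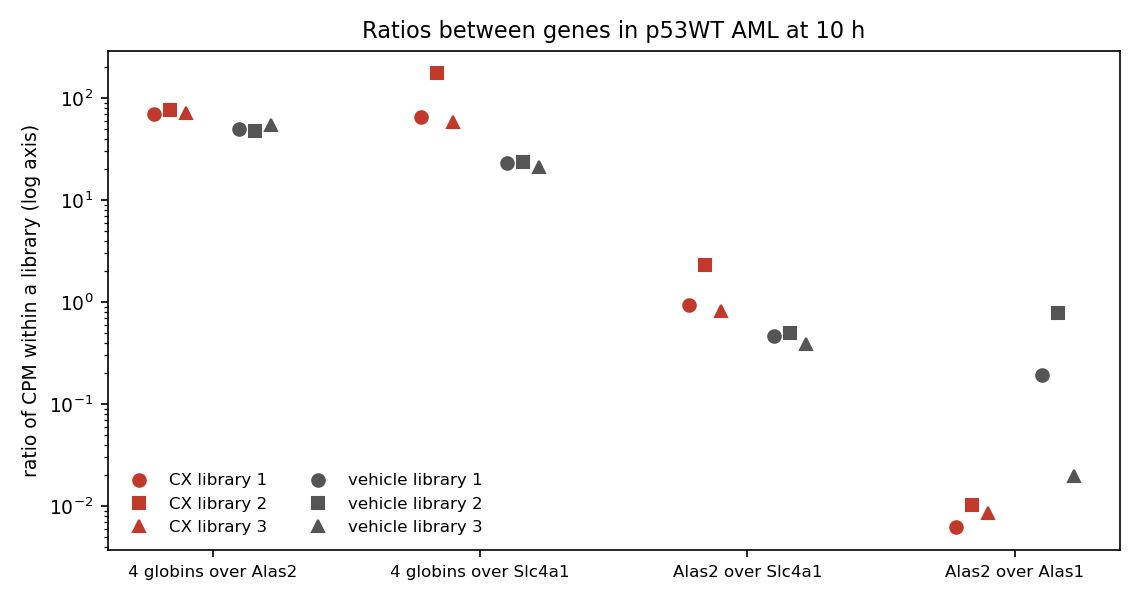
Ratios of CPM within each library of p53WT AML at 10 h on a log axis, for the summed globins over Alas2, the summed globins over Slc4a1, Alas2 over Slc4a1 and Alas2 over Alas1, with CX libraries (red) left of vehicle libraries (grey). The CX libraries lie above the vehicle libraries in the first 3 ratios and below them in Alas2 over Alas1, where vehicle libraries range from 0.0197 to 0.778.

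Per kilobase of the principal GENCODE M21 transcript, the order of the 9 genes by group mean differed between the arms. In CX libraries Alas1 had 181 ± 3.17 CPM per kb, Hbb-bs 164 ± 50.5, Hba-a2 154 ± 46.3, Hba-a1 128 ± 37.5 and Hbb-bt 83.4 ± 27.1 (mean ± SD, n = 3). Neighbours in this order of 5 overlapped within the SDs across libraries. Within each of the 6 libraries, the globins kept the order Hbb-bs, Hba-a2, Hba-a1 and Hbb-bt. That order rests on counts of single genes, which are uncertain. Below these 5 genes came Urod at 29.8 ± 0.479, Fech at 13.2 ± 0.526, Cpox at 10.2 ± 0.535 and Alas2 at 2.28 ± 0.586 CPM per kb. Each was separated from the next by more than the SDs. In vehicle libraries Hbb-bs had 4090 ± 4780 CPM per kb, Hba-a2 3240 ± 3590, Hba-a1 2850 ± 3190 and Hbb-bt 2210 ± 2500, with SDs above the means. Alas1 had 169 ± 11.1, Alas2 80.9 ± 93.3, Urod 46.0 ± 18.2, Fech 20.7 ± 10.9 and Cpox 19.3 ± 9.65 CPM per kb there, and Alas2 could not be placed among the enzymes within its spread. The order by mean did not hold in each vehicle library. In vehicle library 3, Alas1 had 174 CPM per kb, between Hba-a1 at 218 and Hbb-bt at 152. Alas2 was the lowest of the 9 genes there, at 5.21 CPM per kb, as it was in the CX libraries.

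Markers of red cells and of neutrophils were lower with CX-5461 at 10 h as well, and their part in the globin values was not tested. The share of all genes called lower was 4.32% in the quasi-likelihood fit and 6.83% in the authors' deposited table. At an unadjusted p under 0.05 in the quasi-likelihood fit, 16.7% of all genes were lower. Of 18 red cell markers, 16 were in the table, and 13 of these fell by the quasi-likelihood fit with 0 higher (14 lower in the authors' deposited table), at a median log2 fold change of -5.99. This count and this median are descriptions. Of the 16 markers, 11 exceeded 1 CPM in fewer than 3 CX libraries, 7 of them in none. These 11 reached that level in 3 libraries only with vehicle libraries. Of the 5 that exceeded it in all 3 CX libraries, 2 fell, Slc4a1 (log2 fold change -6.40) and Car2 (-4.68). The others were Rhd (-2.67), Gypc (-0.42) and Tfrc (-0.03), named with Car2 after their values were seen. Spectrin beta, Sptb, had 0.896, 1.01 and 1.62 CPM in CX libraries against 37.5, 118 and 6.40 CPM in vehicle libraries (edgeR adjusted p 0.0386). The summed red cell markers were at 274 to 283 CPM in CX libraries against 267 to 2425 CPM in vehicle libraries, and the transferrin receptor gene Tfrc, which cells of many types use, supplied 226 to 233 CPM of the sum in CX libraries and 156 to 320 CPM of that in vehicle libraries. Of the defining red cell markers, Tspo2 and Car1 were not found by symbol in the table, nor was the regulator Gata1. Vehicle library 3 was at a median of 5.78 times the CX mean over the 16 red cell markers. It was at 1.70 times over the globins, 2.29 times for Alas2 and 0.989 times over the housekeeping enzymes. The red cell median is a description too, since it includes the 11 markers listed through vehicle libraries. Of the 5 above 1 CPM in all 3 CX libraries, Slc4a1 (6.82 times) and Car2 (2.43 times) exceeded the globin median. Rhd (1.2 times), Gypc and Tfrc (0.68 times) lay below it, so these 5 did not stand above the globins as a set. Of 10 erythroid regulators in the table, 2 fell and 0 rose by the quasi-likelihood fit, 6 had an unadjusted p under 0.05, and 4 were lower in the authors' deposited table. Both that fell were under 1 CPM in every CX library and above it through the vehicle libraries alone. These were Tal1, with 0.501, 0.780 and 0.639 CPM in CX libraries against 11.7, 41.9 and 1.92 CPM in vehicle libraries, and Zfpm1 (FOG1), a partner of GATA factors, with 0.426 to 0.659 CPM in CX libraries against 1.79 to 42.0 CPM in vehicle libraries.

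Of 12 mature neutrophil markers 8 fell and 0 rose by the quasi-likelihood fit, where 4.32% of all genes fell. All 8 were above 1 CPM in every library of the CX arm, and 12 were lower in the authors' deposited table, where 6.83% of all genes were. The summed level of the 12 was 4243 to 5201 CPM in CX libraries and 9493 to 21280 CPM in vehicle libraries. Among them Ngp, a granule protein gene, had 361, 535 and 389 CPM in CX libraries against 1673, 3176 and 1121 CPM in vehicle libraries. Of the 9 macrophage markers measured, 1 fell by the quasi-likelihood fit, C1qa, which exceeded 1 CPM in fewer than 3 CX libraries. At an unadjusted p under 0.05 were 7 of the 9, where 16.7% of all genes were lower, and 6 were lower in the authors' deposited table. The summed level of the 9 was 340 to 380 CPM in CX against 354 to 572 CPM in vehicle libraries. Adgre1 (log2 fold change -0.30) and Vcam1 (-0.17), named after their values were seen, supplied most of that sum. In CX libraries they had 116 to 122 and 189 to 225 CPM, against 0.597 to 1.08 CPM for C1qa (-2.79). Of 5 B and plasma cell markers 1 fell by the quasi-likelihood fit, Ighm, while 4 had an unadjusted p under 0.05 and 4 were lower in the authors' deposited table, with sums of 103 to 125 CPM in CX against 157 to 556 CPM in vehicle libraries. Of 4 megakaryocyte markers and of 1 T cell marker in the table, 0 passed by the edgeR quasi-likelihood fit, with 1 of each at an unadjusted p under 0.05 and 1 of each lower in the authors' deposited table. Their sums were 4.43 to 6.70 CPM in CX against 6.40 to 16.8 CPM in vehicle libraries for megakaryocytes, and 0.596 to 0.872 CPM in CX against 1.07 to 4.90 CPM in vehicle libraries for the T cell gene Cd3d. Of 10 leukemia and progenitor markers 1 fell by the quasi-likelihood fit, the pan-leukocyte phosphatase gene Ptprc, and 1 was lower in the authors' deposited table. Their summed level was 15810 to 15920 CPM in CX and 12380 to 15670 CPM in vehicle libraries. The 4 measured heme breakdown genes with every CX library below every vehicle library were Hmox1, Blvra, Hmox2 and Blvrb, the last 2 named after their values were seen, where 19.1% of all genes did so, and 0 of 7 in that list passed by edgeR quasi-likelihood (3 at an unadjusted p under 0.05, 2 in the authors' deposited table). None of the 12 genes listed as other globins or as the alpha-globin chaperone was found by symbol in any of the 3 tables. Symbols were matched for 12237 of 12679, 12366 of 12861 and 12362 of 12838 IDs. A gene not found by symbol may therefore still have a row.

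Genes most like Alas2 and Alas1 were taken by Pearson's r of log2 CPM over the 6 libraries, among genes at a mean of at least 5 CPM, and r is given as a description, since the libraries of an arm share their treatment. Among the members, r with Alas2 was 0.998 to 0.999 for the 4 globins, 0.956 for Urod, 0.949 for Cpox, 0.904 for Fech and -0.788 for Alas1. Outside them, the genes with the highest r with Alas2 included the chemokine receptor gene Ccr1, Tal1, and the ubiquitin-conjugating enzyme genes Ube2r2 and Ube2g1, with r of 0.997 to 0.9995. Ube2g1 varied in the same order of libraries as Alas2 over a far narrower range, at 51.8 to 52.7 CPM in CX against 53.1 to 56.8 CPM in vehicle libraries. The genes most like Alas1 were Adi1, Abcb8, Hnrnpm, Mbtps1 and Klf9, with r of 0.988 to 0.994, and Hnrnpm, an RNA-binding protein gene, had 519, 536 and 519 CPM in CX libraries against 505, 450 and 504 CPM in vehicle libraries.

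For p53null AML (10 h) and for the 72 h samples of p53WT AML, the authors' deposited tables give a log2 fold change, a mean CPM and a false discovery rate (FDR) per gene, with no value per library. Group levels were computed from the deposited mean and fold change. Where counts allowed a check, at 10 h in p53WT AML, these levels lay within 0.00418 log2 units of the measured group means of the 9 genes. The 3 tables were normalised separately, so levels set across them are descriptions. In the authors' deposited table for p53WT AML at 10 h, 6 of the 9 genes were lower at an FDR under 0.05 and 0 higher, where 6.83% of all genes were lower and 3.57% higher. They were the 4 globins (FDR 4.91e-07 to 1.14e-06), Alas2 (6.87e-08) and Cpox (0.00999), more than in the quasi-likelihood fit of the same counts.

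In p53null AML the globins were low in both arms and did not pass the test. The authors' deposited table gave log2 fold changes of -0.05 for Hbb-bs, -0.06 for Hbb-bt, -0.13 for Hba-a1 and -0.25 for Hba-a2, with an FDR of 1 each. The implied Hbb-bs level was 45.9 CPM with CX-5461 and 47.5 CPM with vehicle, in the authors' deposited table. Alas2 was at an implied 1.17 CPM with CX-5461 and 1.58 CPM with vehicle (authors' deposited log2 fold change -0.44, FDR 0.958). Alas1 was at an implied 348 CPM with CX-5461 and 369 CPM with vehicle in the authors' deposited table (log2 fold change -0.09, FDR 0.991). Of the 9 genes, 0 passed in the authors' edgeR table and 0 had an unadjusted p under 0.05, where 0.187% of all genes passed in either direction (0.14% at an FDR under 0.01). The authors' deposited log2 fold changes of Urod, Cpox and Fech were 0.11, 0.07 and -0.07. Of the 18 red cell markers 5 were found by symbol in this table, and 13 were not. The summed implied globins were 111 times Alas2 with CX-5461 and 88.8 times with vehicle, and 85.7 and 86.4 times Slc4a1, in the same order of arms.

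At 72 h in p53WT AML the globins and Alas2 did not pass the test, while most red cell markers rose. The authors' deposited table gave log2 fold changes of -0.23 for Hbb-bs (FDR 0.749), -0.10 for Hbb-bt (0.893), -0.11 for Hba-a1 (0.890), -0.09 for Hba-a2 (0.905) and 0.07 for Alas2 (0.935). Implied levels from the authors' deposited table were 240 CPM with CX-5461 and 281 CPM with vehicle for Hbb-bs, and 17.1 CPM with CX-5461 and 16.4 CPM with vehicle for Alas2. Alas1 fell, the only one of the 9 genes that passed, with a log2 fold change of -0.18 and an FDR of 0.0361 in the authors' deposited table, at an implied 533 CPM with CX-5461 and 605 CPM with vehicle. It was thus 1 of 9 lower and 0 higher, where 15.1% of all genes were lower and 16.1% higher. At an FDR under 0.01 it was 0 of 9, where 22.1% of all genes passed in either direction. Cpox had a log2 fold change of 0.27 (FDR 0.202), Urod of 0.04 (FDR 0.798) and Fech of 0.00 (FDR 0.992) in the authors' deposited table. A miss of the threshold does not show that these levels were equal, and the deposited tables allow no interval.

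**Figure D3:**
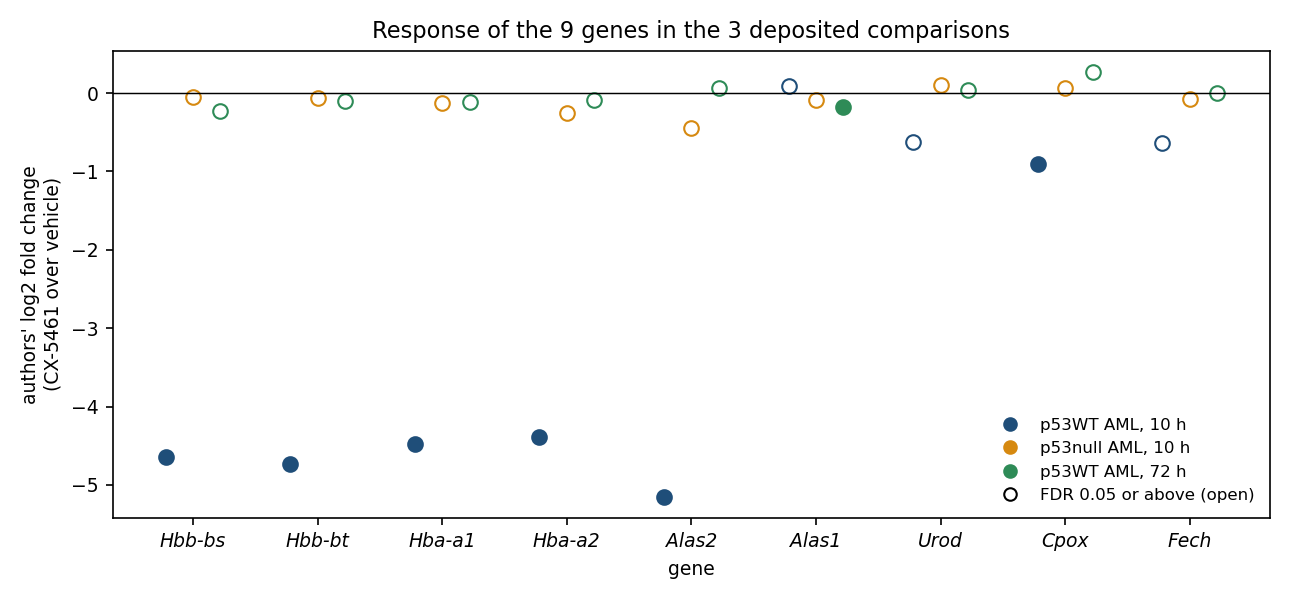
The authors' deposited log2 fold change, CX-5461 over vehicle, of the 9 genes in p53WT AML (10 h, blue), p53null AML (10 h, orange) and p53WT AML (72 h, green), filled where the FDR was under 0.05. The 4 globins and Alas2 lie between -5.15 and -4.39 in p53WT AML at 10 h and between -0.44 and 0.07 in the other 2 comparisons.

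By contrast with the globins, 15 of 17 red cell markers in the 72 h table rose and 1, Gypc, fell, at a median log2 fold change of 1.73 in the authors' deposited table, against -0.10 for the 4 globins and -0.01 over all genes. Over all genes 16.1% were higher and 15.1% lower. The difference between the globins and these markers was not tested. Slc4a1 had a log2 fold change of 1.35 (FDR 0.0299) and Sptb of 2.0 (FDR 0.00248) in the authors' deposited table. Of 12 erythroid regulators 5 rose and 0 fell in it, namely Tal1 (1.59), Zfpm1 (2.32), Klf1 (1.76), the erythropoietin receptor gene Epor (2.41) and Sox6 (1.71), the last 3 named after their values were seen. Epor and Sox6 were at an implied 0.537 and 0.984 CPM with vehicle in the authors' deposited table and were in neither 10 h table, so they may be listed through the CX-5461 arm alone. The same may hold for Car1 and Add2, counted among the 15 and named after their values were seen. In the authors' deposited table they were at an implied 0.412 and 0.829 CPM with vehicle, against 6.82 and 3.95 CPM with CX-5461. The count of 15 and the median of 1.73 are therefore descriptions. The summed implied globins were 14.0 times Slc4a1 with CX-5461 and 39.1 times with vehicle at 72 h, and 51.2 and 58.9 times Alas2, in the same order of arms. The 4 other enzymes of heme synthesis had 0 calls in the authors' edgeR table and 0 at an unadjusted p under 0.05, at a median of 0.05. Among the delivery genes, Slc25a38 rose (0.48, FDR 0.00124) and Slc25a40, a mitochondrial carrier gene, fell (-0.45, FDR 0.00191) in the authors' deposited table.

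Of 7 genes of heme breakdown and export, 4 rose at 72 h in the authors' deposited table and 0 fell, where 16.1% of all genes were higher. The heme oxygenase gene Hmox1 had the largest log2 fold change of this list, 2.81 (FDR 1.01e-38), at an implied 137 CPM with CX-5461 and 19.5 CPM with vehicle. The biliverdin reductase gene Blvrb (0.70), the heme exporter gene Flvcr1 (0.54) and the transporter gene Abcg2 (0.54) were the others, named after their values were seen. Macrophages also express Hmox1 strongly, and 8 of 10 macrophage markers, Hmox1 among them, rose in the same table at a median of 2.81. Of 12 mature neutrophil markers 11 rose there and 0 fell. The part of these cells in the heme breakdown values was not tested.

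**Figure D4:**
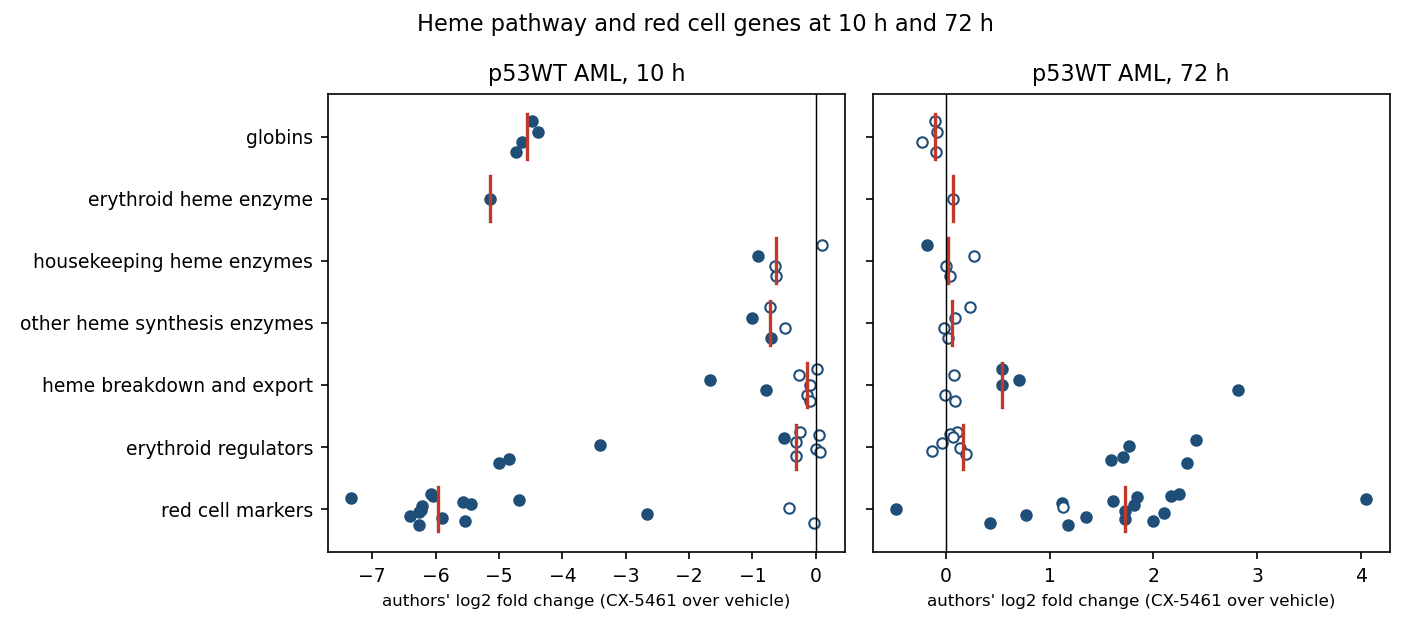
The authors' deposited log2 fold changes, CX-5461 over vehicle, for genes of 7 lists in p53WT AML at 10 h (left) and 72 h (right), filled where the FDR was under 0.05, with a red line at each list's median. At 10 h the medians of globins and red cell markers are -4.56 and -5.97, and at 72 h they are -0.10 and 1.73. The red cell medians are descriptions. At 10 h, 11 of the 16 markers exceeded 1 CPM in fewer than 3 CX libraries. At 72 h, Car1 and Add2 may be listed through the CX-5461 arm alone.

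Across the 3 separately normalised tables, the implied globin level of the vehicle groups varied too. The summed implied globins were 336 CPM with CX-5461 and 7888 CPM with vehicle in p53WT AML at 10 h, 129 CPM with CX-5461 and 140 CPM with vehicle in p53null AML at 10 h, and 876 CPM with CX-5461 and 963 CPM with vehicle in p53WT AML at 72 h. The 10 h vehicle level in p53WT AML is a mean of libraries at 5240, 17919 and 573 CPM, and vehicle library 3 lay below both arms of the 72 h table, as the CX-5461 level did. Alas1 had implied levels of 557 CPM with CX-5461 and 522 CPM with vehicle, 348 and 369 CPM, and 533 and 605 CPM in the same order of arms and comparisons. Whether the response of the globins differed between genotypes or times was not tested, since values per library were at hand for 1 comparison alone.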

How the data were processed

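The submitters' processing notes name the mm9 build and the tools Bowtie, HTSeq, edgeR and CASAVA 1.8.2; settings and gene annotation are not given in the sources used here. Libraries were made with a TruSeq RNA v2 kit, per the labels' protocols, and strand was not recorded. The authors deposited raw counts per gene for 6 libraries (p53WT, 10 h), and for all 3 comparisons a log2 fold change, a log2 mean CPM, a p-value and an FDR, per the file headers. The Pearson correlation of the authors' log2 fold change with that computed from the counts as CX-5461 over vehicle was 0.9997 across genes; the other 2 tables were read in the same direction, which could not be checked. Symbols were found for 12237, 12366 and 12362 IDs.

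Counts were normalised by TMM and tested with edgeR 4.0.16 (quasi-likelihood F test, two-sided, treatment as the only term, 4 residual degrees of freedom) in R 4.3.3, passing at an adjusted p under 0.05; SEs were taken from the F statistic. Each of the 12679 genes with counts was above 1 CPM in 3 or more libraries, and no filter was added. Alternatives were DESeq2 1.42.0, limma-voom (limma 3.58.1), the edgeR exact test and others given at the end. The other 2 tables hold no counts, so the authors' FDR under 0.05 was used. The members and the 15 gene lists were chosen with earlier results of these data known. Genes named beyond the 9 were the 2 of each list with the smallest p at 10 h in p53WT AML and the 5 most like Alas2 and Alas1, except for items not reported here; others are said to be named after their values were seen. Promoters cover the 250 bases before the start, from RefSeq, and lengths come from GENCODE M21, both on GRCm38 and not mm9, so no gene coordinates of the study are given. Protein sequences were not used here.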

Additional observations from a re-analysis of the deposited data

How the results depend on the processing

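At 10 h in p53WT AML 1 of the 9 genes was called, Alas2, by edgeR's quasi-likelihood test, and this count depended on the setting, the 4 globins lying close to the threshold. It was 5 at a mean of at least 5 CPM, 6 by DESeq2, 6 by the edgeR exact test, 2 with library sizes that leave out globin and red cell genes, 0 by limma-voom (5 at an unadjusted p under 0.05) and 0 by robust quasi-likelihood estimation (6 at an unadjusted p under 0.05). Shares over all genes at an unadjusted p were not at hand for limma-voom and the robust fit. The count of called genes stayed at 1 with RLE size factors, library size alone, filterByExpr and summed paralogs. Leaving out 1 library gave 0 to 8: 8 without vehicle library 3 (6.63% of all genes lower), 1 without vehicle library 2 (5.24%) and 0 without vehicle library 1 (6.79%). The count was 0 without CX library 1, 2 or 3, where 0 or 1 of all 12679 genes were called lower. The log2 fold changes of the globins ranged from -5.28 to -3.02 over these single-library omissions and from -4.73 to -3.44 over the other planned settings. All members kept their direction in the planned settings; Fech alone reversed, to 0.25 without vehicle libraries 1 and 2, which leaves 1 vehicle library assumed to vary like the CX libraries. The difference in log2 Alas2 over Alas1 was -3.90 with log2(CPM + 1) and -5.58 to -2.93 with 1 library left out. At an FDR under 0.01 the authors' deposited tables called 0 of the 9 genes in p53null AML and 0 at 72 h, where Alas1 was lost. The cause of these shifts was not tested. Groups of 3, and a spread in the vehicle libraries as large as their means, limit the precision of every globin value, and the other 2 tables give no depth. No paired analysis was possible because the count columns carry the numbers 1 to 3 and the sample titles of these groups the numbers 3 to 5, so that columns cannot be tied to numbered samples.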
